A study of Mus musculus with 2 samples.

Results

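The genes that write and read methylation on lysine 9 of histone H3 (H3K9) were examined in the P9 testes of control and *Bcas2F/-;Vasa-Cre* mice. Members were taken by symbol and comprised 5 H3K9 methyltransferase genes (*Ehmt1*, *Ehmt2*, *Suv39h1*, *Suv39h2* and *Setdb1*), the corepressor gene *Trim28*, and the 3 genes of heterochromatin protein 1, HP1 (*Cbx1*, *Cbx3* and *Cbx5*). These 9 genes are 9 of the 39695 gene entries of the series, and all 9 had a value in both libraries. RNA was sequenced from whole testes of 9-day-old mice, as 1 library from control males and 1 library from *Bcas2F/-;Vasa-Cre* males. Per the methods, control males were *Bcas2F/-*, with 1 floxed and 1 deleted allele of the gene and no Cre, and the mutant males had the same alleles together with *Vasa-Cre*, a transgene that is active in germ cells from fetal life onwards. The deletion was therefore directed at germ cells, and the somatic cells of the mutant testes are meant to keep the floxed allele. The labels give C57BL/6 as strain, the methods describe a mixed background, and neither states how many animals were pooled in a library.

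Methylated H3K9 marks silent chromatin. G9a (*Ehmt2*) and GLP (*Ehmt1*) work as a heterodimer that places mono- and dimethylation in euchromatin, SUV39H1 and SUV39H2 trimethylate H3K9 at pericentric repeats, and SETDB1 is brought to transposable elements by TRIM28 (KAP1) and KRAB zinc finger proteins. HP1 proteins bind the mark through their chromodomain. In the male germ line, loss of G9a, and the joint loss of both SUV39H enzymes, are known to disturb meiotic prophase.

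All values are RPKM, reads per kilobase of gene length scaled to the number of counted reads, as deposited. Differences are log2 ratios of RPKM + 1 in the *Bcas2F/-;Vasa-Cre* over the control library, where the pseudocount of 1 understates the change of low genes. With 1 library per genotype the genotypes could not be tested, and the differences below have no replicate check. Intervals are 95% Clopper-Pearson intervals of a gene's reads, converted to a log2 RPKM ratio without pseudocount, and they cover counting error only. The targeted gene *Bcas2* had 39.5 RPKM in the control library and 25.7 RPKM in the *Bcas2F/-;Vasa-Cre* library, a log2 ratio of −0.60 with an interval from −0.75 to −0.50. In whole testes, fewer cells of a type and less RNA per cell cannot be told apart.

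The 9 genes differed little between the libraries, with log2 ratios between −0.20 for *Cbx3* and 0.24 for *Cbx5*. The ratio was below 0 for 7 genes and above 0 for 2 genes, *Cbx5* and *Suv39h1*. When the RPKM of each library was rescaled to the same sum, *Ehmt2* and *Setdb1* moved from just below to just above 0. The median log2 ratio of the 9 genes was −0.06, beside 0.015 (SD 0.259 across genes) over the 14831 genes whose mean RPKM was 1 or more. No member (0 of 9) was past 1.2-fold, a limit set for description, where 8.91% of all genes were higher and 9.37% lower by more than 1.2-fold. *Cbx5* lay just inside this limit and passed it, at a log2 ratio of 0.27, in the rescaled values. No member was past 1.5-fold, where 3.26% of all genes were found. Because all 9 genes were well expressed, the background was also taken over the 8670 genes whose mean RPKM was 10 or more, a limit chosen after the values were seen. Of these, 3.92% were higher and 6.67% lower by more than 1.2-fold, and 0.957% were past 1.5-fold. The counting interval left out 0 for 4 members in the deposited scaling. Of these, *Ehmt1*, *Trim28* and *Cbx3* were lower and *Cbx5* was higher in the mutant library. It also left out 0 for 18 of the 39 tested genes of the wider H3K9 and HP1 pathway described below. The share over all genes was not counted.

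**Figure D1:**
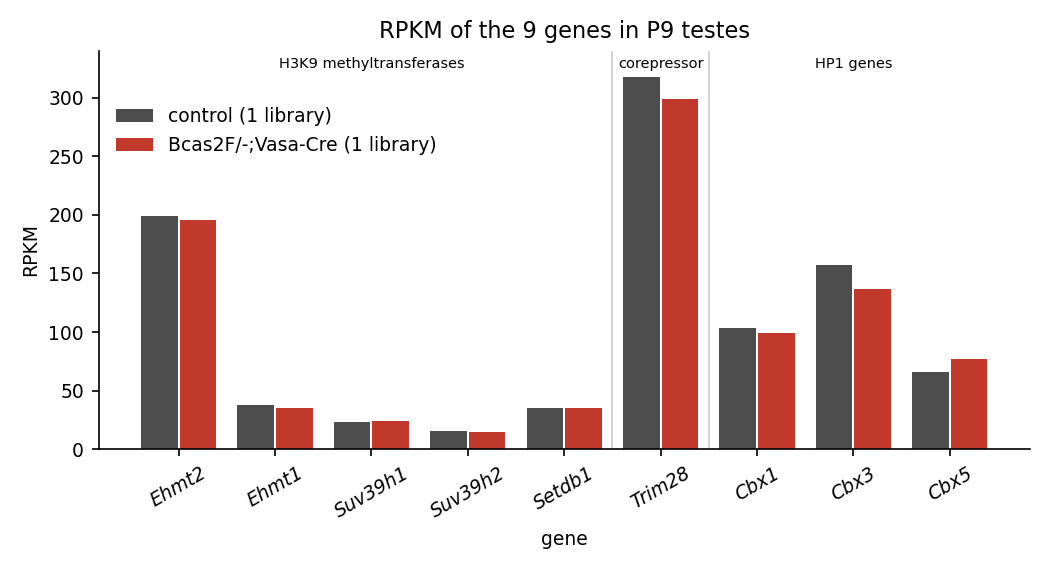
Bars give the deposited RPKM of each of the 9 genes (x axis) in the control library and in the *Bcas2F/-;Vasa-Cre* library, 1 library each, so no error bars can be drawn. *Trim28* and *Ehmt2* stood highest in both libraries, and *Cbx5* was the HP1 gene with the higher bar in the mutant library.

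The sequences that tell the paralogues apart are shown first, because the members fall into families whose reads a counter has to assign to single genes. The longest run shared exactly by the coding sequences of 2 paralogues was 26 bases, between *Suv39h1* and *Suv39h2*, and it encodes a stretch of the catalytic SET domain. Capitals mark the shared run, and lower case letters are 15 coding bases on either side, read from GENCODE M21 transcripts (GRCm38) in the sense of each gene. *Suv39h1* is shown from chrX:8063961-8064016 (minus strand, exon 4 of 6) and *Suv39h2* from chr2:3462531-3462586 (minus strand, exon 4 of 6).
Suv39h1: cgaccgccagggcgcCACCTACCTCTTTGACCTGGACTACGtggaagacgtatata
Suv39h2: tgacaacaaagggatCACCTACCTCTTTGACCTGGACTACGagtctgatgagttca
*Ehmt1* and *Ehmt2* shared at most 20 bases. With the lower case bases included, the stretches shown cross from exon 11 into exon 12 of 27 in both genes.
Ehmt1: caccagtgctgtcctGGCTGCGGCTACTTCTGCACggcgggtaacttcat
Ehmt2: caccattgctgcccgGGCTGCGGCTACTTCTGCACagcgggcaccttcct
Among the HP1 genes, *Cbx1* and *Cbx5* shared 20 bases at the start of the chromodomain, at chr11:96800847-96800896 (plus strand, exon 2 of 6) and chr15:103213123-103213172 (minus strand, exon 2 of 5).
Cbx1: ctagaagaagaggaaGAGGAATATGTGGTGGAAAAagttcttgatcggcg
Cbx5: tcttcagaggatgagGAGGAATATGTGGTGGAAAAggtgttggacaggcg
*Cbx3* and *Cbx5*, the HP1 genes with ratios of opposite sign, shared 14 bases within the chromodomain. With the lower case bases included, the stretches shown cross exons 3 and 4 of *Cbx3* and exons 2 and 3 of *Cbx5*.
Cbx3: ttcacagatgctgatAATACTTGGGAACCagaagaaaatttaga
Cbx5: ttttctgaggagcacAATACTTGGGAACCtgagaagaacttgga
*Cbx1* and *Cbx3* shared 11 bases at most. A read of more than 26 bases within these coding sequences therefore matched no more than 1 gene of a pair exactly.

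Copies elsewhere in the genome were a different matter for *Cbx3*. GENCODE M21 held 13 further genes, most of them processed pseudogenes, that matched at least 50% of its coding sequence with at least 90% identity, and *Cbx3-ps6* and *Cbx3-ps7* were 99.8% and 99.6% identical. Of the 13 copies, 6 had an entry in the files and 3 were above 0, with a summed level of 0.330 RPKM in the control and 0.236 RPKM in the mutant library. *Cbx1* had 1 such copy, *Gm7128* (93.0% identical, not used here), and the other 7 members had 0. A shorter stretch of 261 bases of *Setdb1* was 99.6% identical to *Gm4349*, which had 100 and 105 reads. How reads with several matches were counted is not given in the sources used here, so the levels of these genes, and of *Cbx3* with its many copies above all, are uncertain to that extent.

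The methyltransferase genes showed little difference between the libraries. *Ehmt2*, which encodes G9a and lies on chromosome 17 at 34898469 to 34914052 (plus strand), had 199 RPKM in the control and 196 RPKM in the mutant library, from 7017 and 6707 reads. Its log2 ratio was −0.02 (interval −0.07 to 0.03). A gene-level RPKM sums all transcripts, so the splicing of *Ehmt2*, which the study followed, is not resolved by these values. *Ehmt1*, the gene of its partner GLP (chromosome 2, 24789928 to 24919614, minus strand), had 37.8 and 34.8 RPKM from 1859 and 1664 reads, with a log2 ratio of −0.11 (interval −0.21 to −0.02). The heterodimer's genes thus differed in level, and the RPKM of *Ehmt2* was 5.26 times that of *Ehmt1* in the control library and 5.62 times in the mutant library. The difference between their log2 RPKM ratios was 0.09, and its counting interval from −0.01 to 0.20 included 0.

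*Suv39h1* (chromosome X, 8061171 to 8074760, minus strand) encodes the SUV39H enzyme of most somatic tissues and had 23.1 RPKM in the control and 23.8 RPKM in the mutant library. The reads were 1159 and 1158, and the log2 ratio was 0.04 (interval −0.08 to 0.16). *Suv39h2* (chromosome 2, 3455815 to 3475031, minus strand), the paralogue known for its expression in testis, had 15.5 and 14.2 RPKM from 822 and 734 reads. Its log2 ratio was −0.11 (interval −0.27 to 0.03), so neither paralogue differed beyond counting error. The ratio of *Suv39h1* to *Suv39h2* was 1.49 in the control library and 1.67 in the mutant library, and the log2 difference of 0.16 had an interval from −0.02 to 0.35. Part of both genes is covered by a gene on the opposite strand. *Dclre1c*, a nuclease gene of DNA repair, shares 357 exon bases with *Suv39h2* and had 11.9 and 13.5 RPKM (log2 ratio 0.17), whereas the antisense gene *Gm14820* shares 767 exon bases with *Suv39h1* and had 0.128 and 0.131 RPKM. A second antisense gene at *Suv39h2*, *Gm13184*, shares 83 exon bases with it and was listed at 0 in the control and at 0.496 RPKM in the mutant library. The strand setting of the counting is not given in the sources used here, so reads from these shared bases cannot be told apart.

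*Setdb1* (chromosome 3, 95323525 to 95357202, minus strand) was the member with the smallest difference in the deposited scaling, at 35.5 RPKM from 2660 reads in the control and 35.2 RPKM from 2561 reads in the mutant library. Its log2 ratio was −0.01 (interval −0.09 to 0.07), and only 75 exon bases are shared with *Cers2*, a ceramide synthase gene at 93.8 and 103 RPKM. *Trim28* (chromosome 7, 12999114 to 13031035, plus strand), the corepressor that recruits SETDB1, had the highest level of the 9 genes, with 317 and 299 RPKM from 6448 and 5897 reads. Its log2 ratio was −0.09 (interval −0.14 to −0.03). At this level counting error is small, and the interval left out 0 although the RPKM differed by only 5.77%. Summed over the 5 methyltransferase genes, the level was 311 RPKM in the control and 304 RPKM in the mutant library. *Ehmt2* contributed 64.0% and 64.4% of these sums.

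The HP1 genes held both ends of the range. *Cbx1*, which encodes HP1 beta (chromosome 11, 96789127 to 96808640, plus strand), had 103 RPKM from 2948 reads in the control and 99.2 RPKM from 2753 reads in the mutant library, with a log2 ratio of −0.06 (interval −0.13 to 0.02). *Cbx3*, which encodes HP1 gamma, a form also found in euchromatin (chromosome 6, 51470360 to 51483704, plus strand), had 157 and 137 RPKM. Its reads were 3700 and 3134, and its log2 ratio was −0.20 (interval −0.27 to −0.13). *Cbx5*, which encodes HP1 alpha, a form enriched in pericentric heterochromatin (chromosome 15, 103191544 to 103239816, minus strand), had 65.5 and 77.4 RPKM from 4561 and 5230 reads. Its log2 ratio was 0.24 (interval 0.18 to 0.30), the only ratio of the 9 genes above 0 whose interval left out 0.

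The 2 outer values were set beside those of other genes. Of the 8670 genes at 10 RPKM or more, 13.8% were at least as far from 0 as *Cbx5*, and 5.52% were at least as far on the same side. The shares for *Cbx3* were 21.9% and 12.1%. Both genes stand well above 10 RPKM, and the spread is narrower at higher levels, so the shares were also taken over genes within 2-fold of each gene's mean RPKM, a choice made after the values were seen. Of 3089 genes near the level of *Cbx5*, 10.2% were at least as far from 0 and 3.40% on the same side. Of 1442 genes near the level of *Cbx3*, the shares were 17.1% and 11.0%. The log2 ratios of these genes had an SD of 0.158 around *Cbx5* and 0.155 around *Cbx3*. The spread between libraries of the same genotype was not measured.

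**Figure D2:**
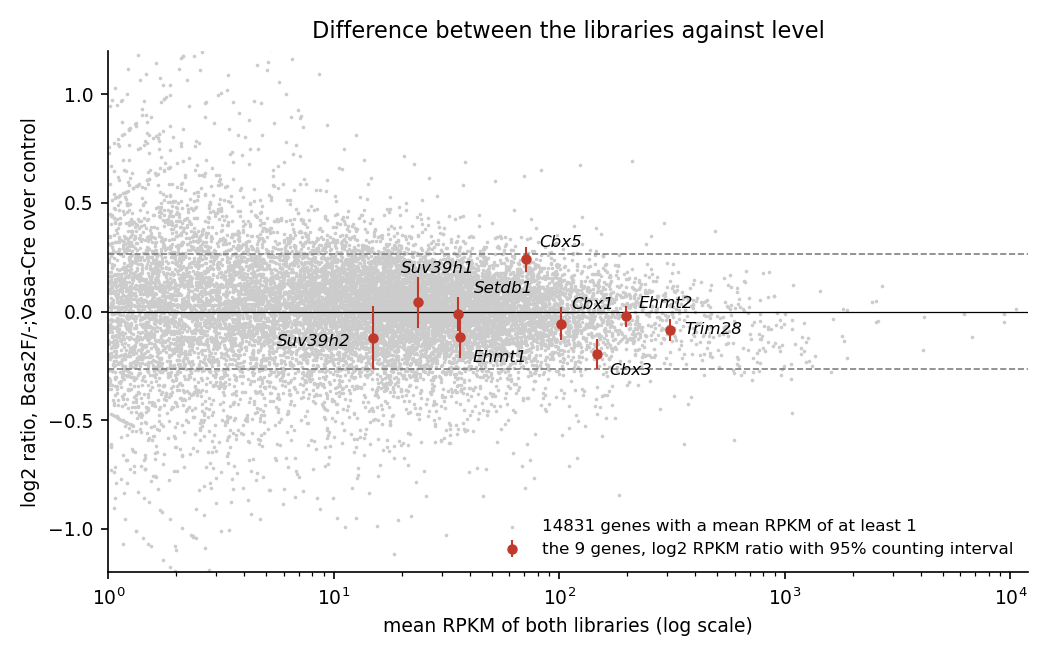
Each grey point is 1 of 14831 genes, with its mean RPKM (log scale) on the x axis and the log2 ratio of RPKM + 1 in the mutant over the control library on the y axis; 71 genes lie outside the plotted range. Red points are the 9 genes, drawn as the log2 RPKM ratio without pseudocount with its 95% counting interval, and all 9 points lie between the dashed lines at 1.2-fold.

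Set against each other within the libraries, the HP1 genes differed in their ratios. The log2 difference between *Cbx5* and *Cbx3* was 0.44 (interval 0.35 to 0.53), that between *Cbx5* and *Cbx1* was 0.30 (interval 0.20 to 0.39), and that between *Cbx1* and *Cbx3* was 0.14 (interval 0.04 to 0.24). A comparison of 2 genes of the same library does not depend on the scaling of that library. The pairs were 3 of 5 that were compared, and the intervals carry counting error only. The summed level of the 3 HP1 genes was nearly the same, 325 RPKM in the control and 313 RPKM in the mutant library. Within this sum the share of *Cbx3* was 48.2% in the control and 43.7% in the mutant library, while the share of *Cbx5* was 20.1% and 24.7%. *Cbx1* held 31.7% and 31.6%.

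The order of the levels depended on the gene length behind RPKM. The length that the deposited values use was close to the mean length of a gene's annotated transcripts, within 2% for 8 of the 9 genes, and short non-coding transcripts lower that mean. For *Trim28* the length used was 1020 bases against 3245 bases for its longest transcript, so its RPKM would be 3.18 times lower per longest transcript. In RPKM, *Trim28*, *Ehmt2*, *Cbx3*, *Cbx1* and *Cbx5* stood above 88.1% or more of the genes tested, followed by *Ehmt1* (74.7%), *Setdb1* (74.1%), *Suv39h1* (63.9%) and *Suv39h2* (51.1%). *Ehmt1* and *Setdb1* were neighbours in this order and changed places between the libraries, so their levels were not separated. Per kilobase of the longest transcript, a scale chosen after the values were seen, *Trim28* had 99.8 in the control library and *Ehmt2* had 87.5, and *Cbx3* and *Cbx1* came together at 63.5 and 62.3. On this scale *Ehmt1* went from place 6 to place 8 of the 9 genes. The share of *Cbx3* in the HP1 sum was then 41.8% in the control and 37.9% in the mutant library, while that of *Cbx5* was 17.1% in the control library and again higher in the mutant library. For *Cbx3* the length used was 1185 bases, against an annotated mean of 1403 bases, so its reads could be off by a whole factor, which would widen or narrow its interval but not move its ratio.

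**Figure D3:**
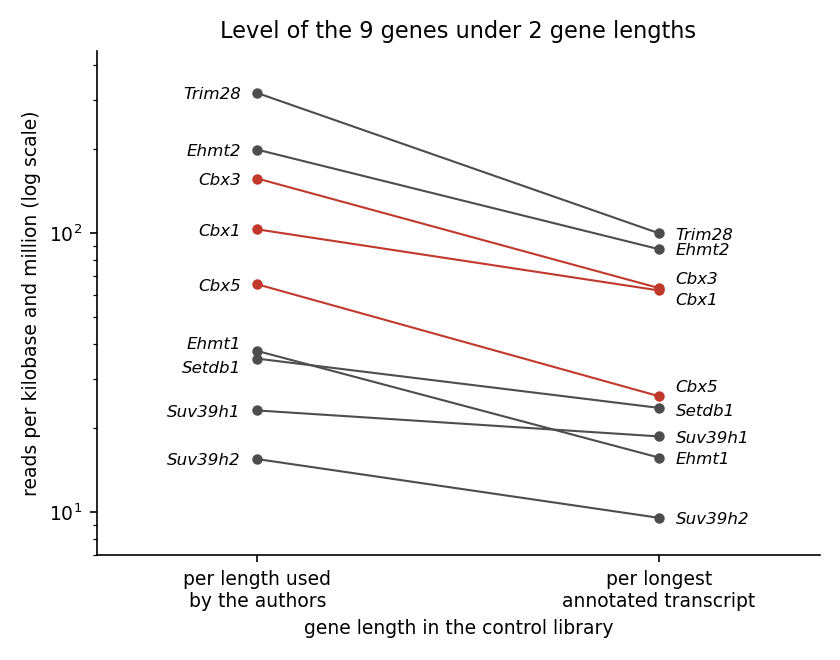
Each line joins the control level of 1 of the 9 genes per length used by the authors (left, RPKM) and per longest annotated transcript (right), in reads per kilobase scaled to depth on a log scale, with the HP1 genes in red. *Trim28* and *Ehmt2* stay at the top on both scales, *Cbx3* and *Cbx1* come together, and *Ehmt1* lies below *Setdb1* and *Suv39h1*.

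Both HP1 genes at the ends of the range have an hnRNP gene as close neighbour. *Cbx3* and *Hnrnpa2b1*, the gene of an RNA-binding protein of splicing and mRNA transport, are transcribed away from each other. Their nearest RefSeq starts are 722 bases apart. *Hnrnpa2b1* had 627 RPKM in the control and 692 RPKM in the mutant library, a log2 ratio of 0.14 (interval 0.11 to 0.17), opposite in sign to that of *Cbx3*. *Cbx5* and *Hnrnpa1*, a paralogue of *Hnrnpa2b1*, are arranged in the same way with nearest starts 545 bases apart. A further RefSeq start of *Cbx5* lies 25045 bases from that of *Hnrnpa1*. *Hnrnpa1* had 571 and 576 RPKM, a log2 ratio of 0.01, against 0.24 for *Cbx5*. In neither pair did the 2 genes share a sign and size of difference. In all, 12 annotated genes lay within 1 kb of, or overlapped, 8 of the 9 members, and *Ehmt1* had none. Of these, 4 were head to head and 6 overlapped the member. *Ehmt2* faces the complement gene *C2* across 203 bases, and *C2* had 6.26 and 6.72 RPKM.

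The windows of 250 bases before 1 RefSeq start each of *Cbx3* and *Cbx5* (GRCm38.p6), the start nearest to the hnRNP gene, are printed. These genes had ratios of opposite sign and both lie in such a bidirectional arrangement. Capitals mark matches to GGGCGG or its reverse complement CCGCCC, the core of a GC box, and to CCAAT or its reverse complement ATTGG. The *Cbx3* window is chr6:51470366-51470615 (plus strand) and the *Cbx5* window is chr15:103239853-103240102 (minus strand), each 5′ to 3′ in the sense of the gene.
Cbx3: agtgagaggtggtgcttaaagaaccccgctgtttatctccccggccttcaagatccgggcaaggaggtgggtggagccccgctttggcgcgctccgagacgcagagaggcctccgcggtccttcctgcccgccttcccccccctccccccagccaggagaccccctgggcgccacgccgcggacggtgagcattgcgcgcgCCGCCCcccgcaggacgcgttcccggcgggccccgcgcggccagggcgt
Cbx5: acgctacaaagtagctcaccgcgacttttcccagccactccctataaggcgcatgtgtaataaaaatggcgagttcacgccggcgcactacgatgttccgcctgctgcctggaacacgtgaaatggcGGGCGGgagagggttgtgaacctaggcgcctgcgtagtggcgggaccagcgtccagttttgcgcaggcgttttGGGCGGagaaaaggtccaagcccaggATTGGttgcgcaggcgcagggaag
The *Cbx3* window held 29 CpG dinucleotides and 1 GC box core, and the *Cbx5* window held 22 CpG dinucleotides, 2 GC box cores and 1 CCAAT match. Both genes have a further RefSeq window that is not printed. That of *Cbx3* (chr6:51471002-51471251) held 31 CpG dinucleotides and 0 matches. That of *Cbx5* (chr15:103215353-103215602) held 7 CpG dinucleotides, 1 GC box core and 0 CCAAT matches. All 9 members had a RefSeq promoter, with 13 windows in total because some genes have more than 1 start. GGGCGG, on either strand, was found in 12 of the 13 windows and in at least 1 window of each member, against 32.7% of all 32851 RefSeq windows. CCAAT was found in 3 member windows, those of *Cbx5*, *Setdb1* and *Suv39h1*, against 33.8% of all windows. TATAAA was found in 0 of the 13 windows and in 12.4% of all windows. The median number of CpG dinucleotides was 22 in the member windows and 6 over all windows. These matches describe the letters of the windows only. *Cbx3*, *Cbx5* and the members with ratios near 0 all had GGGCGG in at least 1 window.

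The wider H3K9 and HP1 pathway was followed in 41 further genes in 5 lists, of which 39 reached a mean RPKM of 1. The log2 ratio was above 0 for 24 and below 0 for 15, with a median of 0.07 beside 0.015 over all genes. Past 1.2-fold, 2 genes were higher and 3 were lower, which is 5 of 39 beside 8.91% and 9.37% of all genes.
The listed demethylases, which remove the mark, were above 0 in 10 of 10 tested genes, beside 53.7% of all genes tested. Their median log2 ratio was 0.10, with a range from 0.06 to 0.35. The counting interval left out 0 for only 5 of these 10 genes. The count of genes above 0 was the same in the rescaled values and after centring on the median gene. This count depends on the genes chosen. *Kdm1b*, a histone demethylase gene outside the list whose action on H3K9 was not examined, had a mean RPKM of 21.5 and a log2 ratio of −0.41. *Kdm3a*, a demethylase of H3K9me1 and H3K9me2 with a role in spermatids, had 23.7 RPKM in the control and 30.4 RPKM in the mutant library (log2 ratio 0.35, interval 0.28 to 0.44). *Kdm7a* had 51.0 and 62.4 RPKM (log2 ratio 0.29, interval 0.24 to 0.34). *Kdm1a* (LSD1), the demethylase gene with the highest level, had 109 and 116 RPKM. *Kdm4d*, the 11th gene of the list, was left out because its mean RPKM was under 1, and it was below 0 at 0.438 and 0.365 RPKM (log2 ratio −0.07, interval −1.28 to 0.73).
Of the 4 other methyltransferases, the 3 tested genes were below 0, whereas *Mecom*, left out because its mean RPKM was under 1, had 0.829 and 1.14 RPKM (log2 ratio 0.23, interval −0.12 to 1.05). *Prdm2* had 43.9 and 39.5 RPKM (log2 ratio −0.15) and *Setdb2* had 15.7 and 13.5 RPKM (log2 ratio −0.20).

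Among 4 partners of G9a and GLP, 1 gene was above 0 and 3 were below, or 2 and 2 in the rescaled values. *Zfp644* and *Wiz*, the zinc finger proteins that bring the heterodimer to DNA, differed little as well. *Zfp644* had 84.7 RPKM in the control and 83.5 RPKM in the mutant library (log2 ratio −0.02), and *Wiz* had 29.7 and 28.1 RPKM (log2 ratio −0.08). Among 10 partners of SETDB1 and TRIM28, 7 were above 0 and 3 below, with a median of 0.10. *Mphosph8*, the chromodomain subunit of the HUSH complex that acts with SETDB1, had 143 RPKM in the control and 110 RPKM in the mutant library, a log2 ratio of −0.38 (interval −0.46 to −0.31). *Morc2a*, which works with HUSH, had 60.3 and 64.4 RPKM.
Among 12 partners of HP1, 6 were above 0 and 6 below, or 7 and 5 in the rescaled values, with a median of 0.01 that turned slightly negative after centring on the median gene. *Uhrf1*, which binds H3K9me3 and hemimethylated DNA and is high in dividing cells, had 51.0 and 35.9 RPKM, a log2 ratio of −0.50 (interval −0.60 to −0.41). *Lbr*, the lamin B receptor that ties HP1 to the nuclear envelope, had 26.7 and 21.7 RPKM (log2 ratio −0.29). The chromatin remodellers *Atrx* and *Chd4* were the highest of this list. *Atrx* had 168 RPKM in the control and 192 RPKM in the mutant library, and *Chd4* had 162 and 161 RPKM.

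**Figure D4:**
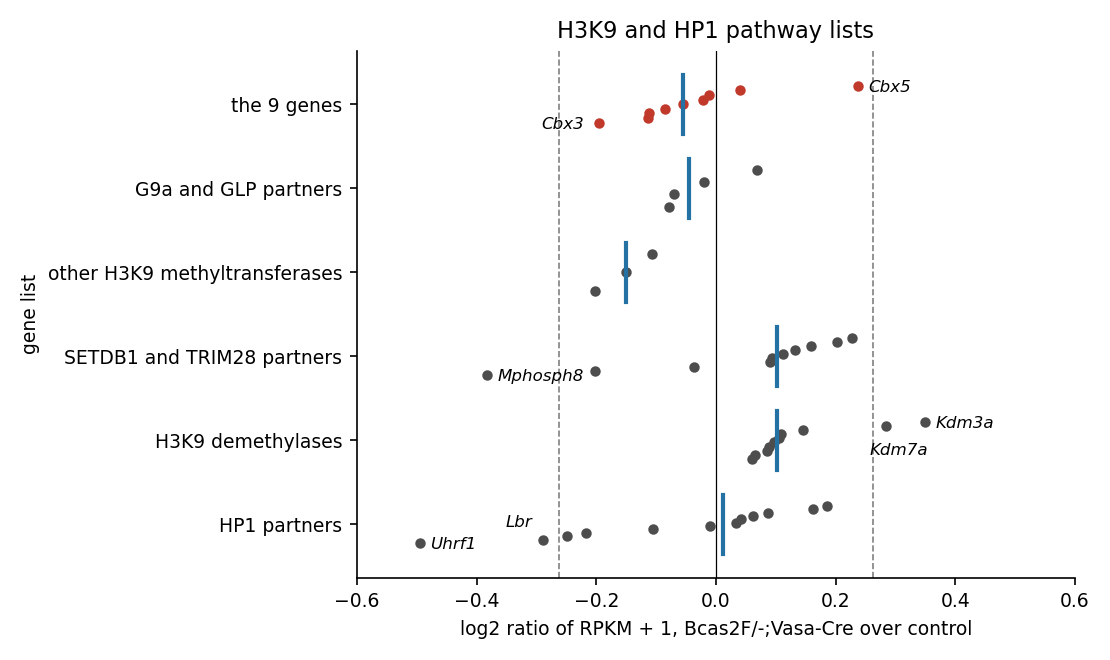
Each point is a gene whose mean RPKM was 1 or more, placed by its log2 ratio of RPKM + 1 (mutant over control library, x axis) in the row of its list, with the 9 genes in red, blue bars at list medians and dashed lines at 1.2-fold. All 10 tested demethylase genes of the list lie above 0, *Uhrf1*, *Mphosph8* and *Lbr* lie below the lower line, and the 9 genes lie between the lines.

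The make-up of the libraries was read from marker genes of testis cells, with 1 library per genotype. By real-time RT-PCR at P9, the study found *Nanos2*, *Ddx4* (*Mvh*), *Sohlh1*, *Sohlh2*, *Kit*, *Dazl* and *Stra8* similar between the genotypes. It found *Dmc1*, *Sycp1*, *Sycp3* and *Smc1b* lower in the mutant testes. Its counts of PLZF-positive spermatogonia, at a later age, did not differ significantly. It also reported altered splicing of *Dazl*. Of 22 germ cell markers, 19 were below 0 and 3 above, 14 were lower and 1 was higher by more than 1.2-fold, and their summed level was 945 RPKM in the control and 703 RPKM in the mutant library. Within this group, meiotic prophase markers summed to 102 and 66.7 RPKM, and markers of all germ cells, led by *Dazl*, *Mael* and *Ddx4*, to 450 and 345 RPKM. Markers of undifferentiated spermatogonia summed to 163 and 126 RPKM, and those of differentiating spermatogonia to 230 and 165 RPKM. The undifferentiated sum was carried by *Lin28a* (96.6 and 75.5 RPKM). In that list 5 of 7 markers were below 0 and 2 above, 3 being lower and 1 higher by more than 1.2-fold. Of the 5 differentiating markers, 4 were below 0 and 1 above. For Sertoli cells, 5 of 5 tested markers were above 0, or 3 of 5 after centring on the median gene, and 2 were more than 1.2-fold higher, with sums of 457 and 513 RPKM, while *Rhox5* was listed at 0 in both libraries. Leydig cell markers summed to 381 and 425 RPKM, with 3 of 5 above 0, all 3 by more than 1.2-fold, and a median log2 ratio of 0.36. Peritubular myoid (413 and 382 RPKM), endothelial (33.6 and 32.3 RPKM) and macrophage markers (17.4 and 15.1 RPKM) were lower in sum in the mutant library, with 0 genes past 1.2-fold. The myoid sum was carried by *Acta2* (344 and 314 RPKM), and 2 of 4 myoid markers were above 0. So was 1 of 3 endothelial markers, while all 3 macrophage markers were below 0. Red cell markers summed to 808 and 794 RPKM, a sum carried by *Hbb-bs* (551 and 596 RPKM), while 3 of 4 were below 0, 2 of them by more than 1.2-fold, with a median log2 ratio of −0.32. Which cells of the testis gave the reads of the 9 genes was not measured, and the part of this difference in their ratios was not tested.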

How the data were processed

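The 9 genes and all lists were chosen with earlier results of these data known. The authors aligned paired-end reads to mm10 with TopHat2 (version 2.0.9, per the submitters' processing notes), used HTSeq to count reads on genes, and deposited 1 RPKM value per gene entry and library. The annotation release, strand setting and treatment of reads with several matches are not given in the sources used here. RPKM corrects for gene length and depth, but not for RNA composition. Of 39695 entries, 37692 (95.0%) matched GENCODE M21 (GRCm38) by identifier. Library sizes of 19918750 (control) and 19331687 (*Bcas2F/-;Vasa-Cre*) reads, and whole reads per gene, were recovered from the RPKM steps of genes with 1 transcript. Of such genes above 0, 1319 of 6582 (control) and 1329 of 6626 gave exactly these sizes. Intervals and read numbers rest on these. The recovery was tested on simulated data in which every gene had its annotated mean transcript length. That test therefore did not cover genes with another length, such as *Cbx3*, *Kdm3a* and *Lbr*. PCR duplicates were not distinguished. No count test was run, since each genotype had 1 library. Genes named were the 9 members, *Bcas2*, genes within 1 kb, copies, and of each pathway list the genes past 1.2-fold with the 2 highest levels. Of the cell markers, at most the 3 highest of a list were named. Genes left out by the filter, markers listed at 0, *Gm4349* and *Kdm1b* are named in addition, chosen after their values were seen. Alternatives changed the pseudocount, the filter on mean RPKM and the scaling. Promoters are from RefSeq (GRCm38.p6). Python 3.11.15, numpy 2.4.6, scipy 1.17.1, pandas 2.3.3, matplotlib 3.10.9 and BLAST+ 2.17.0 were used.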

Additional observations from a re-analysis of the deposited data

How the results depend on the processing

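The log2 ratios of the 9 genes were recomputed under 4 alternatives each, and all 36 values stayed within the counting error of the deposited scaling. Of these, 2 had the other sign, *Ehmt2* (0.01) and *Setdb1* (0.02), both after the RPKM of each library were rescaled to the same sum. With that scaling the number of members more than 1.2-fold higher was 1 (*Cbx5*, log2 ratio 0.27) instead of 0. The counting intervals were not recomputed for this scaling. It moved the log2 ratio of *Ehmt1* from −0.114 to −0.0869, while the deposited interval of this gene ended at −0.0205. Whether that interval leaves out 0 therefore depends on the scaling. The share of all genes past 1.2-fold was 18.3% at a mean of 1 RPKM or more. At that limit it was 22.9% in the rescaled values, and 23.5% and 24.1% with pseudocounts of 0.1 and 0.01. With the deposited scaling and a pseudocount of 1, it was 12.2% without a filter and 10.6% at 10 RPKM or more. The last limit was chosen after the data were seen. Fewer genes with low reads are tested at the higher limit, whereas without a filter many genes at 0 enter. No library could be left out, because each genotype had 1, and no paired analysis was possible because there is only 1 library on each side. Of the 9 intervals, 5 included 0, among them that of *Ehmt2*, the member with the most reads (7017 and 6707). Depth limits the members with fewer reads: the interval of *Suv39h2* (822 and 734 reads) reached −0.27, past 1.2-fold. The spread between animals was not measured.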

Other observations

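Some Polycomb CBX genes carry a chromodomain like the HP1 genes but bind methylated H3K27. *Cbx2*, which is required for gonad development, had 29.2 RPKM in the control and 24.4 RPKM in the mutant library, a log2 ratio of −0.25 (interval −0.37 to −0.14). After centring on the median gene it was past 1.2-fold lower. *Cbx6* had 58.0 and 63.9 RPKM, a log2 ratio of 0.14 (interval 0.08 to 0.20).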
